A study of Mus musculus with 8 samples.

Results

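The eIF2 kinases and the brakes on translation were followed in growth plate cartilage of mice through 10 genes and 11 array probes, out of 56605 non-control probes. The genes were taken by name: Eif2ak1, Eif2ak2, Eif2ak3 and Eif2ak4 (the eIF2-alpha kinases), Ppp1r15a and Ppp1r15b (subunits of the eIF2-alpha phosphatase), Oma1 (a mitochondrial stress protease), and Eif4ebp1, Sesn2 and Ddit4 (inhibitors of cap-dependent translation or of mTORC1). A probe belonged to a gene if the transcript it was designed on is a RefSeq transcript of that gene. All 10 genes had a probe, and all were well above background on 8 of 8 arrays. Total RNA of femoral growth plates, the cartilage discs by which long bones lengthen, came from 12-day-old littermates, 4 CreTW and 4 Cre mice, with 100 ng of RNA on a 1-colour Agilent array per mouse. Neither genotype name is explained in the labels. From what is known of the study, a Cre recombinase driven by collagen II regulatory sequences is present in all 8 mice, and in CreTW mice it also switches on mutant Twinkle in cartilage, which impairs the copying of mitochondrial DNA. The question named by the title is how cartilage growth responds to a failing respiratory chain.

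The genes followed here bear on a pair of the routes by which cells slow protein synthesis. In the first, a kinase phosphorylates the initiation factor eIF2, which lowers initiation in general while a few messages, such as that of the transcription factor ATF4, are translated more. HRI (Eif2ak1) is known for sensing heme shortage, PKR (Eif2ak2) double-stranded RNA, PERK (Eif2ak3) misfolded protein in the endoplasmic reticulum, and GCN2 (Eif2ak4) uncharged tRNA. In the second, mTORC1 is restrained, or the cap-binding factor eIF4E is held back by 4E-BP1. Kinase activity lies in the protein, so an mRNA level does not measure it.

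Of the 10 genes, Eif4ebp1 and Sesn2 had higher signal in all 4 CreTW mice than in any Cre mouse, and the other 8 overlapped between the genotypes. Eif4ebp1 was the gene that rose at the threshold used, an adjusted p under 0.05 by limma with Benjamini-Hochberg adjustment over 23105 features. It was thus 1 of 10 members called higher and 0 were called lower, where 0.229% of all features were called higher, 0.117% lower and 0.346% in either direction. At an unadjusted p under 0.05, 2 of 10 members were higher and 0 lower, against 5.93% and 4.8% of all features, or 10.7% in either direction. Groups that did not overlap were found for 2 of 10 members, higher in CreTW, and 0 lower, against 3.89% and 2.81% of all features, or 6.7% in either direction. The log2 difference was positive for 6 of 10 members and 48.4% of all features, with medians of 0.07 and -0.0075. Values are log2 signal minus the array's 75th percentile, so that 0 is the 75th percentile of that array and 1 unit is a doubling. Differences are CreTW minus Cre with the limma SE, n = 4 mice per genotype. For within-array differences between genes, the SE was instead computed from the variance within each genotype, without limma.

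**Figure D1:**
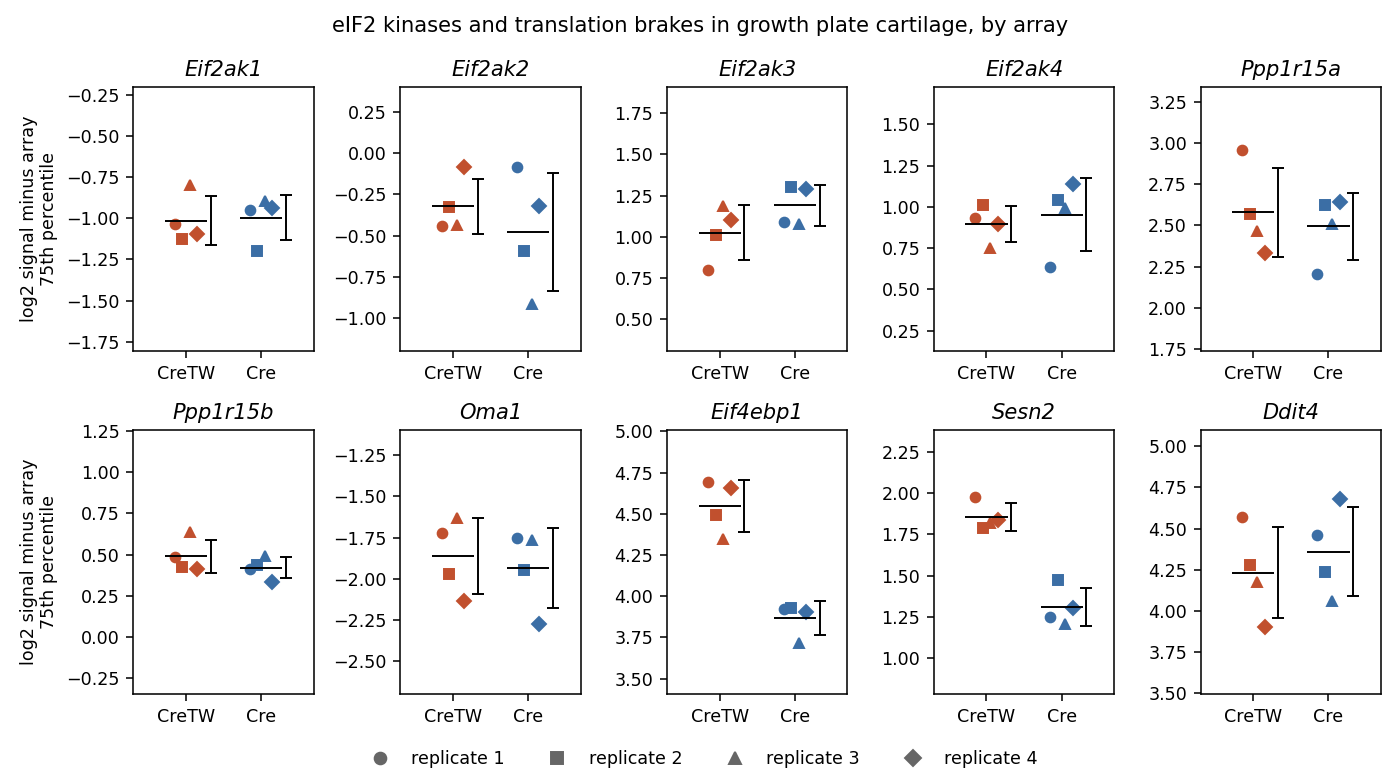
Each panel plots a gene's log2 signal minus the array's 75th percentile (vertical axis, of equal length in every panel) for the 4 CreTW and 4 Cre arrays. Symbols are replicates, horizontal lines means and bars the SD; Eif4ebp1 and Sesn2 separate the genotypes and the other 8 genes overlap.

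The 250 bases upstream of the gene's start are shown for Sesn2 and Ddit4, inhibitors of the same complex of which 1 separated the genotypes and the other did not, and for Ppp1r15a, the stress-inducible phosphatase subunit, whose window held the CRE. The table of RefSeq promoters (GRCm38.p6) held 8 of the 10 members in 9 windows, without Eif4ebp1 and Ppp1r15b. All are written 5′ to 3′ on the gene's strand, minus for all 3, and capitals mark matches on either strand to the CRE bound by ATF and CREB factors (TGACGTCA), the core bound by HIF (ACGTG) or the CCAAT box. The coordinates are chr4:132510457-132510706 for Sesn2, chr10:59951771-59952020 for Ddit4 and chr7:45526269-45526518 for Ppp1r15a.
Sesn2: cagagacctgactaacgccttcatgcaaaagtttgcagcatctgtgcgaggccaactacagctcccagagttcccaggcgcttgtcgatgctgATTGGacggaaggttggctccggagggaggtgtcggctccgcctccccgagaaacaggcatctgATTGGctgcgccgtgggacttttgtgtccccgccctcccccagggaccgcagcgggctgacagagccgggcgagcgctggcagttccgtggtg
Ddit4: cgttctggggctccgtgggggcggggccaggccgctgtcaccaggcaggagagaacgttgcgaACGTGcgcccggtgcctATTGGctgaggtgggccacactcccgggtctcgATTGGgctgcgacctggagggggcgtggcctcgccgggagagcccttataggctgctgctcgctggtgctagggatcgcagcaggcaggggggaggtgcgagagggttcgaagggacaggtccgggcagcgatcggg
Ppp1r15a: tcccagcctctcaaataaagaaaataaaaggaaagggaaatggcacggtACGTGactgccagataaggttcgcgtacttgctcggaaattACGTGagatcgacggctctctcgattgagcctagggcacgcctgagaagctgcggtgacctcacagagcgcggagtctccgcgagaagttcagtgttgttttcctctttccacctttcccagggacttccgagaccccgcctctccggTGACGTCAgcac

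The Sesn2 window held 2 CCAAT boxes, 157 and 93 bases before the gene's start, and the Ddit4 window 2 at 170 and 137 bases and a HIF core at 187 bases. The Ppp1r15a window held a CRE 12 bases before the start and HIF cores at 201 and 160 bases. The composite element bound by ATF4 with a C/EBP factor, searched as TGATGNAA on both strands, matched in 0 of the 9 windows and in 3.45% of 32851 such windows over all genes. The CRE was in 1.55% of all windows, the HIF core in 16.6% and the CCAAT box in 33.8%. None of these motifs overlapped another in the printed windows.

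None of the 4 kinase genes passed the test, and the genotypes overlapped for each. Eif2ak1 read -1.04, -1.13, -0.80 and -1.098 in CreTW mice and -0.95, -1.202, -0.90 and -0.94 in Cre mice, in the order of the replicate numbers, which holds for every such series here. The groups overlapped, with the highest value in CreTW replicate 3 and the lowest in Cre replicate 2, and a difference of -0.02 ± 0.11 (adjusted p = 0.965, limma). HRI is the kinase that, in human cells, mitochondrial stress reaches through OMA1 and DELE1. The other, dimmer probe of Eif2ak1 differed by 0.03 ± 0.10 in a separate limma fit of single probes (adjusted p = 0.938 over the probes kept). The probes thus differed in sign around 0.

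Eif2ak2 read -0.44, -0.33, -0.44 and -0.08 in CreTW mice and -0.08, -0.59, -0.91 and -0.32 in Cre mice. All 4 CreTW values lay inside the span of the Cre values, which was the widest of any kinase gene, and the difference was 0.15 ± 0.18 (adjusted p = 0.777, limma). Eif2ak3 read 0.80, 1.01, 1.19 and 1.1 in CreTW mice and 1.09, 1.30, 1.08 and 1.29 in Cre mice. Here 2 of 4 CreTW mice lay below every Cre mouse while the others fell among them, with a difference of -0.17 ± 0.11 (adjusted p = 0.618, limma). In humans loss of PERK causes Wolcott-Rallison syndrome, which includes skeletal dysplasia. Its log2 difference was the lowest of the 10 genes. Eif2ak4 read 0.93, 1.01, 0.75 and 0.90 in CreTW mice and 0.64, 1.04, 0.996 and 1.14 in Cre mice. Its CreTW values again lay within the Cre span (difference -0.06 ± 0.12, adjusted p = 0.900, limma).

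On the linear scale the 95% limma intervals of CreTW over Cre were 0.831 to 1.17 for Eif2ak1, 0.839 to 1.48 for Eif2ak2, 0.749 to 1.06 for Eif2ak3 and 0.792 to 1.17 for Eif2ak4. Over the 8 overlapping genes the lowest bound was 0.693-fold, for Ddit4, and the highest 1.48-fold, for Eif2ak2. The 6 pairs of kinase genes were also compared within arrays. No pair's difference changed with genotype beyond the spread between mice, and the widest gap was that of Eif2ak2 over Eif2ak3, 0.32 ± 0.21 (exact permutation p = 0.257, two-sided, 0.566 adjusted over 11 pairs).

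**Figure D2:**
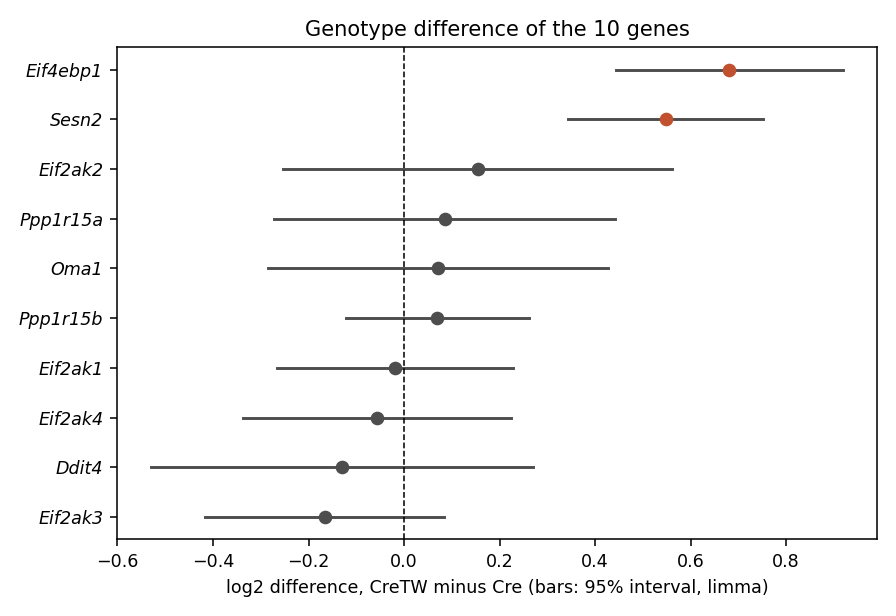
Log2 difference of each of the 10 genes (points, CreTW minus Cre, horizontal axis) with the 95% limma interval (bars), n = 4 mice per genotype. The intervals of 8 genes include 0, and those of Sesn2 and Eif4ebp1, in colour, lie above it at 0.34 to 0.75 and 0.44 to 0.92.

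The phosphatase that ends the eIF2 signal has a pair of targeting subunits. GADD34 (Ppp1r15a) is the form induced by ATF4 and CHOP as feedback, and CReP (Ppp1r15b) the constitutive form. Ppp1r15a read 2.96, 2.57, 2.46 and 2.33 in CreTW mice and 2.20, 2.62, 2.51 and 2.64 in Cre mice. The highest value was that of CreTW replicate 1 and the lowest that of Cre replicate 1, while the other 6 arrays interleaved (difference 0.09 ± 0.16, adjusted p = 0.875, limma). The difference was 0.35 among the 4 arrays of slide row 1 and -0.18 among those of row 2, so its direction was not the same in the rows. The row was read from the array barcode and is not named in the labels. Row 1 held replicates 1 and 2 of each genotype and row 2 replicates 3 and 4. A difference between rows thus cannot be told apart from a difference between those mice. Ppp1r15b read 0.48, 0.42, 0.64 and 0.41 in CreTW mice and 0.41, 0.44, 0.49 and 0.34 in Cre mice. It was among the least variable features, with a within-genotype SD at percentile 7.30 of all features, and differed by 0.07 ± 0.08 (adjusted p = 0.786, limma), or 0.919 to 1.198-fold. Within arrays Ppp1r15a over Ppp1r15b averaged 2.09 in CreTW mice and 2.08 in Cre mice (exact permutation p = 0.971, two-sided). Of the 3 catalytic subunits of the phosphatase 0 passed the test. At an unadjusted p under 0.05, 1 was higher, where 5.93% of all features were. Ppp1ca was at -0.13 ± 0.08, Ppp1cc at -0.14 ± 0.09 and Ppp1cb at 0.22 ± 0.09 (adjusted p = 0.440, limma).

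Oma1 cleaves the inner-membrane fusion factor OPA1 when mitochondria lose their membrane potential. It read -1.72, -1.97, -1.63 and -2.14 in CreTW mice and -1.75, -1.95, -1.76 and -2.27 in Cre mice. The genotypes overlapped, with a difference of 0.07 ± 0.16 (adjusted p = 0.902, limma). Of 8 listed OMA1 substrates and inner-membrane partners 0 passed by limma, 0 had an unadjusted p under 0.05, and the median was -0.0019. The genotypes did not overlap for 1 that was higher in CreTW, Opa1, and 1 that was lower, Phb. Over all features the shares were 3.89% and 2.81%. Opa1 was at 0.15 ± 0.08, the prohibitins Phb and Phb2 at -0.13 ± 0.08 and -0.05 ± 0.08, and Dele1, whose product carries the OMA1 signal to HRI in human cells, at 0.05 ± 0.08.

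Eif4ebp1 encodes 4E-BP1, which binds eIF4E and blocks assembly of the cap complex until mTORC1 phosphorylates it, and is a known ATF4 target in mouse pancreatic beta cells. It read 4.69, 4.49, 4.34 and 4.66 in CreTW mice and 3.92, 3.93, 3.71 and 3.90 in Cre mice. All 4 CreTW mice lay above all 4 Cre mice, with means of 4.55 ± 0.16 in CreTW and 3.87 ± 0.10 in Cre (SD, n = 4 each). The rise was 0.68 ± 0.10 (1.60-fold, 95% interval 1.36 to 1.89, adjusted p = 0.0417, limma), near the threshold. The size was alike in the rows of the slide, 0.67 in row 1 and 0.69 in row 2. With 1 array left out at a time the difference was 0.63 to 0.75. The call held without CreTW replicate 3 (adjusted p = 0.0372, limma) and was lost without each of the other 7 arrays (adjusted p up to 0.159).

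The paralogues did not pass the test. Eif4ebp2, the 4E-BP abundant in brain, was at -0.05 ± 0.07 and Eif4ebp3 at 0.02 ± 0.09. Within arrays Eif4ebp1 over Eif4ebp2 was 2.08 to 2.44 in CreTW mice and 1.46 to 1.63 in Cre mice, without overlap, and the genotypes differed by 0.73 ± 0.09. Its exact permutation p of 0.0286 (two-sided) is the smallest that 8 arrays can give, and became 0.105 when adjusted over 11 pairs. An adjusted p under 0.05 would need at least 7 of the 11 pairs at that smallest p. Of 18 listed genes of cap-dependent translation and its regulators 0 passed over all features by limma, and the median was -0.0012. At an unadjusted p under 0.05, 2 were higher and 1 lower, where 5.93% and 4.8% of all features were. The brightest were the elongation factor Eef2 at 0.26 ± 0.09 and the eIF4A inhibitor Pdcd4 at 0.18 ± 0.10. The lowest unadjusted p was that of Eef2k, the kinase that inhibits eEF2, at 0.41 ± 0.11 (adjusted p = 0.242, limma).

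Profiles most like that of Eif4ebp1 over the 8 arrays were sought by the root mean square distance of log2 values centred on each gene's mean. The nearest were Slc3a2, the heavy chain of several amino acid exchangers (distance 0.07), Tenm4, a teneurin (0.09), Gm8096, a predicted gene (0.09), Thy1, a surface glycoprotein of fibroblasts and other cells (0.10), and Inhba, a subunit of activin (0.10). Slc3a2 read 4.24, 4.08, 3.97 and 4.17 in CreTW mice and 3.60, 3.56, 3.45 and 3.61 in Cre mice, and so shared with Eif4ebp1 a lowest value at replicate 3 in each genotype. These distances describe 8 arrays and carry no test, and a shared genotype difference is part of what makes them small.

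Sesn2, a stress-induced leucine sensor that holds mTORC1 down through the GATOR complexes, read 1.98, 1.79, 1.82 and 1.84 in CreTW mice and 1.25, 1.47, 1.21 and 1.30 in Cre mice. All CreTW mice lay above all Cre mice, with means of 1.86 ± 0.08 in CreTW and 1.31 ± 0.12 in Cre (SD, n = 4 each), and both groups were tight, with a within-genotype SD at percentile 13.2 of all features. The difference of 0.55 ± 0.09 (1.46-fold, 95% interval 1.27 to 1.68) missed the threshold with an adjusted p of 0.0590 by limma and an unadjusted p of 0.000222. It was 0.52 in slide row 1 and 0.57 in row 2. Sesn1 read 2.71, 2.68, 2.53 and 2.65 in CreTW mice and 2.52, 2.44, 2.50 and 2.77 in Cre mice, without separating them. Sesn3 read 1.21, 1.27, 0.97 and 1.30 in CreTW mice and 1.29, 1.01, 0.83 and 1.27 in Cre mice, again overlapping. Within arrays Sesn2 over Sesn1 was higher in CreTW by 0.47 ± 0.11 and Sesn2 over Sesn3 by 0.46 ± 0.15, each without overlap and each with an exact permutation p of 0.0286 (two-sided, 0.105 adjusted over 11 pairs).

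In a list of the other sestrins, the arginine sensors, and the GATOR, Rag, Ragulator and folliculin complexes, 0 of 24 measured genes passed over all features by limma. At an unadjusted p under 0.05, 3 were higher and 0 lower, where 5.93% and 4.8% of all features were. The difference was positive for 17 of 24, against 48.4% of all features, and the median was 0.07. Rragd, a GTPase that brings mTORC1 to the lysosome, had the largest difference, 0.97 ± 0.21 (adjusted p = 0.179, limma). It read -1.56, -0.46, -0.86 and -1.01 in CreTW mice and -2.06, -2.12, -1.77 and -1.84 in Cre mice, and its order among CreTW mice was that of the summed muscle markers (42.2, 625, 372 and 216); their part in its value was not tested. Fnip1, a partner of folliculin, was at 0.32 ± 0.09 (adjusted p = 0.255, limma), and the brightest, Lamtor3 and Lamtor4, were at 0.12 ± 0.08 and -0.08 ± 0.10. Of 14 listed genes of mTORC1, its TSC brake and its substrates 0 passed by limma and 0 had an unadjusted p under 0.05, with a median of 0.07, and Rps6 was at 0.19 ± 0.09 and Rps6kb1 at -0.17 ± 0.10.

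Ddit4 encodes REDD1, which releases TSC to inhibit mTORC1 and is known to respond to ATF4, low oxygen and glucocorticoids. It read 4.57, 4.28, 4.18 and 3.90 in CreTW mice and 4.46, 4.24, 4.06 and 4.68 in Cre mice. The genotypes overlapped, with the highest value in Cre replicate 4 and the lowest in CreTW replicate 4. The difference was -0.13 ± 0.18 (0.693 to 1.21-fold, adjusted p = 0.814, limma), 0.07 in slide row 1 and -0.33 in row 2. The paralogue Ddit4l was at 0.17 ± 0.15, and within arrays Ddit4 over Ddit4l was 2.10 to 2.83 in CreTW mice and 2.61 to 2.79 in Cre mice (exact permutation p = 0.171, two-sided). The arrestin-family genes Txnip and Arrdc3, listed beside Ddit4l, were at -0.09 ± 0.18 and 0.29 ± 0.18.

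**Figure D3:**
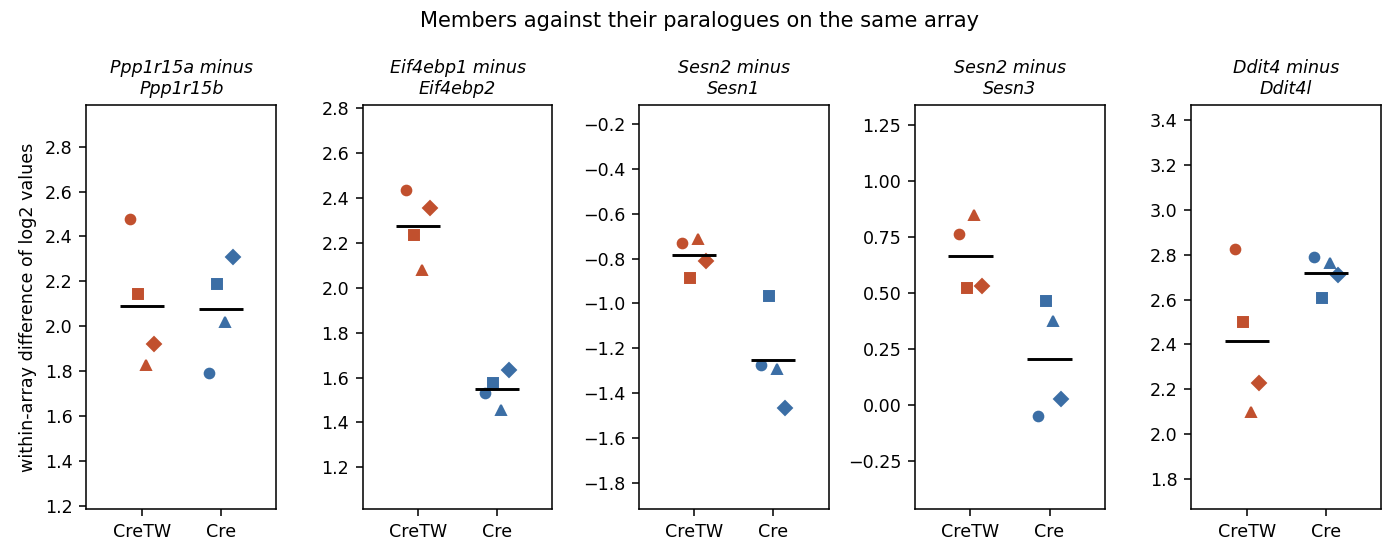
Within-array difference of log2 values (vertical axis, log2 units) between a member and its paralogue for the 4 CreTW and 4 Cre arrays; symbols are replicates 1 to 4 as circle, square, triangle and diamond, and lines are means. Eif4ebp1 over Eif4ebp2 and Sesn2 over Sesn1 and Sesn3 do not overlap between genotypes, whereas Ppp1r15a over Ppp1r15b and Ddit4 over Ddit4l do.

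Targets of other regulators known to act on Ddit4 or Sesn2 gave no call over all features by limma. Of 8 glucocorticoid targets 0 passed and 0 had an unadjusted p under 0.05 (median 0.11), with the leucine zipper gene Tsc22d3 at 0.14 ± 0.20, the kinase gene Sgk1 at 0.15 ± 0.20, Zbtb16 at 0.60 ± 0.33 and Klf9 at 0.23 ± 0.21. Of 9 HIF targets 0 passed (median -0.30). At an unadjusted p under 0.05 by limma 3 were higher and 3 lower, where 5.93% and 4.8% of all features were. The lower were the prolyl hydroxylase gene Egln3 at -0.83 ± 0.15 (adjusted p = 0.0993, limma), Car9 at -0.65 ± 0.25 and Ankrd37 at -0.40 ± 0.16. The higher were Ndrg1 at 0.46 ± 0.14, Adm at 0.55 ± 0.23 and Vegfa at 0.39 ± 0.16. The mitophagy receptor gene Bnip3 was at -0.67 ± 0.33. Of 9 p53 targets 0 passed, with 1 higher at an unadjusted p under 0.05 (median 0.10), with Phlda3 at 0.12 ± 0.09, the cell cycle inhibitor gene Cdkn1a at 0.10 ± 0.14, Trp53inp1 at 0.39 ± 0.13 and Zmat3 at 0.18 ± 0.09. Of 6 measured NRF2 targets 0 passed, with 1 higher at an unadjusted p under 0.05 (median 0.05), with heme oxygenase Hmox1 at 0.57 ± 0.18, the antioxidant gene Srxn1 at 0.01 ± 0.10 and Gclm, of glutathione synthesis, at 0.18 ± 0.08.

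The machinery that the kinases act on gave no call. Of 11 genes of eIF2, its exchange factor eIF2B and related initiation factors 0 passed by limma. At an unadjusted p under 0.05, 1 was higher, where 5.93% of all features were. The list median was 0.05 and differences lay between -0.10 and 0.18. Eif2s2, the beta subunit, was at 0.14 ± 0.11, Eif2b2 and Eif2b3, subunits of eIF2B, at 0.01 ± 0.09 and 0.14 ± 0.08, and the GTPase activator Eif5 at 0.18 ± 0.07 (adjusted p = 0.440, limma). Of 8 regulators of the kinases 0 passed by limma, with a median of -0.04. At an unadjusted p under 0.05, 1 was lower, where 4.8% of all features were. Dnajc3, an endoplasmic reticulum co-chaperone also described as an inhibitor of PERK and PKR, was at -0.29 ± 0.08 (adjusted p = 0.278, limma). Hspa5, the chaperone BiP that keeps PERK inactive, was at -0.18 ± 0.09, and Gcn1, the GCN2 activator, at -0.13 ± 0.10. Among 8 transcription factors and cofactors of the stress response 3 passed and were higher, where 0.229% of all features were. At an unadjusted p under 0.05 by limma 6 of 8 were higher and 0 lower, where 5.93% and 4.8% of all features were. All 8 were positive, with a list median of 0.73. The 3 that passed were Trib3, a pseudokinase (2.92 ± 0.17), Atf5 (1.24 ± 0.11) and Ddit3, which encodes CHOP (1.02 ± 0.09). Atf3 was at 1.01 ± 0.24, Nupr1 at 0.45 ± 0.11, Atf4 at 0.27 ± 0.10, Cebpb at 0.19 ± 0.17 and Cebpg at 0.09 ± 0.08. The list was made with these results known.

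**Figure D4:**
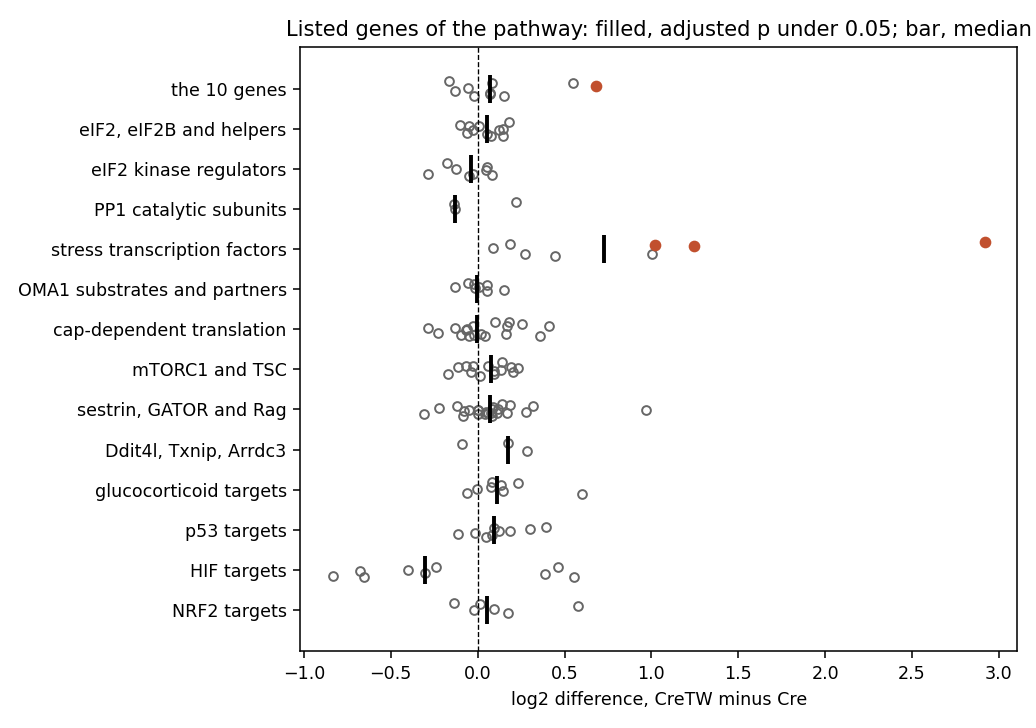
Log2 difference, CreTW minus Cre (horizontal axis), of each measured gene (circles) in the 10 genes and in 13 lists of related genes; filled circles have an adjusted p under 0.05 by limma and black bars are list medians. Filled circles are Eif4ebp1 among the 10 genes and Ddit3, Atf5 and Trib3 among the stress transcription factors.

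The tissue was checked against 10 chondrocyte markers, all of which were well above background on all 8 arrays, with summed levels of 2133 to 2639 in CreTW and 2047 to 3270 in Cre mice, in multiples of the 75th percentile. Markers of neighbouring tissues differed between arrays, and some lists leaned one way between the genotypes. All 14 skeletal muscle markers had a positive log2 difference (median 4.03). Of these, 0 passed over all features and 11 were higher at an unadjusted p under 0.05 by limma, where 5.93% of all features were. Of 7 measured osteoclast markers 0 were positive (median -0.85), and of 5 measured erythroid markers 0 were (median -0.64). Of 8 osteoblast and osteocyte markers 0 were positive (median -0.28), and of 8 perichondrium, tendon and fibroblast markers 8 were (median 0.36). Positive differences numbered 2 of 10 for chondrocyte, 3 of 9 for neutrophil and macrophage, 1 of 7 for endothelial and 2 of 3 for adipocyte markers. Over all features 48.4% were positive. The 14 skeletal muscle markers summed to 42.2, 625, 372 and 216 in CreTW mice and to 29.9, 70.4, 98.1 and 58.1 in Cre mice, with 10 to 14 of them well above background in CreTW and 7 to 14 in Cre. The mean of the same markers, each centred on its own mean log2, was -1.27, 3.53, 3.10 and 2.07 in CreTW mice and -2.26, -3.26, 0.46 and -2.38 in Cre mice. CreTW replicate 1 was below 3 of 4 Cre mice by the sum and above 3 of 4 by this mean, within the Cre range by either. The 7 osteoclast markers summed to 386, 274, 1017 and 566 in CreTW mice and to 1044, 1170, 1013 and 417 in Cre mice. CreTW replicates 3 and 4 were within the Cre range of these, and the other CreTW mice below it. The part of these tissues in the values of Eif4ebp1 and Sesn2 was not tested beyond the fits with a marker score that follow.

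The 8 perichondrium, tendon and fibroblast markers summed to 328 to 407 in CreTW mice and 227 to 310 in Cre mice, without overlap, and 3 of the 8 (Dpt, Col3a1 and Thbs4) separated the genotypes upward. The score entered in each fit was the mean of a list's markers, each centred on its own mean log2, and not the sum. The perichondrium, tendon and fibroblast score was a covariate chosen after the data were seen. With it the difference was 0.71 ± 0.18 for Eif4ebp1 (adjusted p = 0.919, limma) and 0.69 ± 0.14 for Sesn2 (adjusted p = 0.515, limma), and 1 feature of all was called. With the muscle score the differences were 0.89 ± 0.13 for Eif4ebp1 (adjusted p = 0.122, limma) and 0.71 ± 0.12 for Sesn2 (adjusted p = 0.184, limma). With the osteoclast score they were 0.65 ± 0.12 for Eif4ebp1 and 0.56 ± 0.11 for Sesn2 (adjusted p = 0.163 for each, limma). Summed levels of other markers overlapped: osteoblast and osteocyte 552 to 738 in CreTW and 572 to 738 in Cre, erythroid 188 to 452 in CreTW and 316 to 542 in Cre, neutrophil and macrophage 36.9 to 80.2 in CreTW and 31.0 to 150.0 in Cre, endothelial 18.0 to 32.1 in CreTW and 19.3 to 31.4 in Cre, and adipocyte 6.82 to 10.3 in CreTW and 5.30 to 15.4 in Cre. In RNA of whole tissue a change in the number of cells of a type and a change in RNA per cell cannot be told apart.

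**Figure D5:**
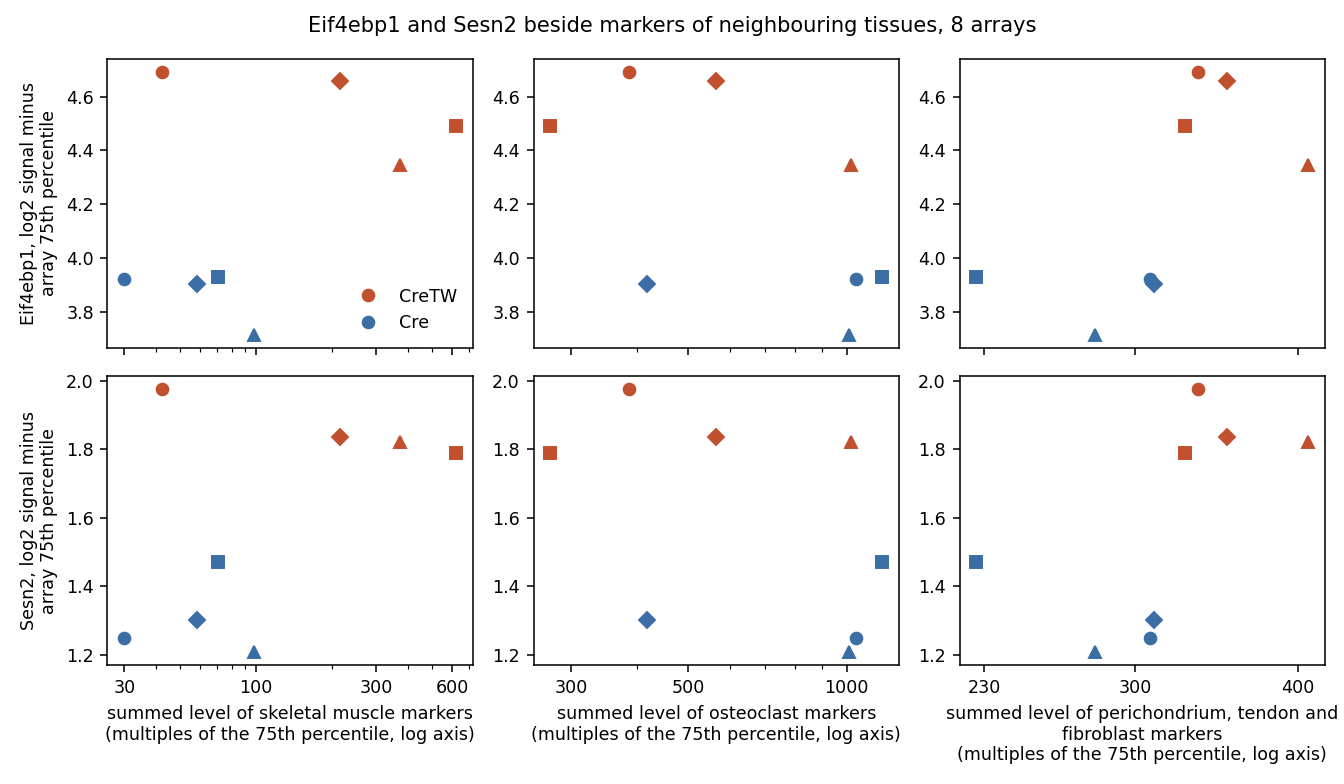
Log2 signal of Eif4ebp1 (top) and Sesn2 (bottom) minus the array's 75th percentile, against the summed level of skeletal muscle, osteoclast, and perichondrium, tendon and fibroblast markers (log axes, multiples of the 75th percentile), for 4 CreTW and 4 Cre arrays. Symbols are replicates 1 to 4 as circle, square, triangle and diamond; the genotypes overlap in the muscle and osteoclast sums and not in the perichondrium, tendon and fibroblast sums.

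The share of probes well above background was 45.4% to 57.9% per array, with 0 saturated spots, and arrays correlated at r = 0.981 to 0.989 within genotypes and 0.972 to 0.988 between them over the features kept. The labels name separate mice, and their number limits the precision.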

How the data were processed

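Spot intensity was extracted by the authors using Feature Extraction software (Agilent, 11.5.1.1) with probes placed on mm9, per the file headers, which give a background-subtracted processed intensity. The authors' deposited log2 table was made with GeneSpring 14.9, per the labels, and equals the log2 processed intensity minus a constant per array (-0.0056 to -0.0030 from the log2 75th percentile; column medians -3.04 to -2.94; genes not centred). Non-control spots of a probe were averaged without outlier spots, taken to log2, and the 75th percentile was subtracted. A minimum of 4 of 8 arrays with the probe well above background was required. Names came from RefSeq transcripts (GRCm38.p6, names alone): 32994 probes matched 1 symbol, 0 several and 23611 none. The brightest probe stood for a gene, giving 23105 features, 14127 with a symbol.

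Genotypes were compared with limma 3.58.1 in R 4.3.3 (lmFit and eBayes, 6 residual and 2.52 prior degrees of freedom), with Benjamini-Hochberg adjustment over all features, and the procedure was tested on simulated data. Paralogues were compared within arrays by exact permutation. The members, the lists and the tests were chosen with earlier results of these data known. All members were named. From each list the called genes were named, or, where none was, the 2 brightest and the 2 with the lowest p. For a called member the 5 features nearest in profile were named. Other listed genes in the text were chosen after their values were seen. Samtor and Ahsp had no matching probe. Normexp was run on the median signal. The closing section gives the alternatives tried.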

Additional observations from a re-analysis of the deposited data

Results flagged for a closer look

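In 2 of the 20 groups of 4 mice formed by the 10 genes, 1 mouse lay far from the other 3 by Dixon's ratio of the gap to the range, above its 95% critical value. Chance alone gives this in about 1 group in 20. Eif4ebp1 in Cre mice was at 3.71 in replicate 3 and 3.90 to 3.93 in the others (ratio 0.87), and Eif2ak1 in Cre mice was at -1.202 in replicate 2 and -0.95 to -0.90 in the others (ratio 0.832).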

How the results depend on the processing

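The main count was 80 features (53 higher and 27 lower), 1 of them a member, Eif4ebp1, and 23 other settings were planned and 1, the fibroblast score, added after the data were seen. The count of members called became 2, by the addition of Sesn2, under quantile normalization, normexp, the filter on all 8 arrays, eBayes with trend and robust, and array weights, with adjusted p-values of 0.0340, 0.0187, 0.0368, 0.0178 and 0.0445. It became 0 with dim probes kept, with the slide row as a block, within each slide row, and with the muscle, osteoclast or fibroblast score, and was 0 to 1 without single arrays. The features called were 132 with normexp, 127 with array weights, 27 without the filter, 53 with the row as a block, 45 with the osteoclast score, 4 with the muscle score, 1 with the fibroblast score, 42 to 75 without single arrays, and 0 within row 1 and within row 2 by limma (3164 and 1216 at an unadjusted p under 0.05). The cause of these moves was not tested, beyond the fewer arrays or larger table that some settings have by construction. With the replicate number as a block, 12 features and 0 members were called. The same-numbered mice had correlations of deviations of -0.01, -0.10, 0.31 and -0.03, and differently numbered mice -0.50 to 0.40. Values so few and so spread cannot settle whether the numbers pair the mice, and the main fit left them unpaired. No pair of paralogues was called in the main test or under any of the 5 settings run (0 of 11 adjusted, 3 of 11 in the main test at an unadjusted exact p under 0.05), nor without single arrays, a setting added after the data were seen (0 adjusted, 1 to 4 unadjusted). A call would need at least 7 of 11 pairs at the smallest p possible, so these counts of 0 say nothing of stability.

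Over all alternatives Eif4ebp1 stayed at 0.63 to 0.89 (called in 9 of 24) and Sesn2 at 0.47 to 0.71 (called in 5 of 24). The other 8 members were called in none, and several changed sign around 0: Eif2ak1 (0.0059 with the mean of its probes, 0.018 with the osteoclast score), Eif2ak2 (-0.047 in row 1, -0.21 with the fibroblast score), Eif2ak4 (0.13 in row 1, 0.068 with the fibroblast score), Ppp1r15a (-0.18 in row 2, -0.021 with the osteoclast score), Oma1 (-0.0073 with normexp, -0.056 with array weights) and Ddit4 (0.074 in row 1, 0.18 with the muscle score). Without single arrays these ranged over -0.091 to 0.018 for Eif2ak1, -0.16 to 0.0050 for Eif2ak4, -0.040 to 0.17 for Ppp1r15a and -0.043 to 0.16 for Oma1. All 10 members were well above background on all 8 arrays, and the number of mice limits the precision.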
